A study of Mus musculus with 30 samples.

Results

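Endothelial marker genes, whose RNA in muscle comes mainly from the cells lining blood vessels, were followed in quadriceps muscle of male mice. The set was listed by name, with earlier results of these data known, and held 10 genes. Cldn5, Cdh5, Esam and Pecam1 belong to the cell junctions, and Kdr, Tie1, Aplnr and Eng encode receptors. Emcn encodes a surface glycoprotein and Egfl7 a secreted factor. All 10 had an entry in the deposited expression table, out of 16475 entries that were no control probe sets, and all 10 had intensities over 20 on 5 or more arrays. The mice were of the C57BL/6J strain, which the labels spell C56BL/6J, and each gave 1 whole-muscle RNA sample and 1 biotin-labelled array. All had received a standard growth diet and then a low fat run-in diet for 3 weeks. The HF day 56 group (10 mice, 20 weeks old) had then been fed a high fat diet for 56 days, and the LF day 56 group (10 mice, 20 weeks old) had stayed on low fat food over the same 56 days. The LF day 0 group (10 mice, 12 weeks old) had been killed when the run-in ended. HF day 56 against LF day 56 therefore compared diets at equal age, while both comparisons with LF day 0 combined diet time with age and shared the same 10 baseline arrays. Both comparisons with LF day 56 likewise shared its 10 arrays.

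Endothelial cells are held together by adherens junctions built on VE-cadherin and, in tight barriers, by claudins, and they receive growth and survival signals through receptor tyrosine kinases. VEGF acts through the receptor encoded by Kdr, angiopoietins through Tek together with Tie1, apelin through the G protein-coupled receptor encoded by Aplnr, and BMP9 through a complex that contains endoglin. In skeletal muscle these cells form the capillary bed around the fibres, which delivers oxygen, fatty acids and glucose.

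In whole muscle, fewer cells of a type and less RNA per cell cannot be told apart. Muscle fibre genes marked the tissue, with 12 of 12 measured fibre genes over that level. Myh7, a slow fibre gene, varied widely between arrays, from 1.68 to 9.72 on the log2 scale. Array medians lay between 8.9 and 9.4, between 6334 and 6563 entries per array exceeded 20, and no array duplicated another. Spike-in control RNAs split the arrays into 9 with a higher 5′ to 3′ signal and 21 with a lower one, with 3 and 7 arrays of each group in these sets. Below, high and low spike-in signal refer to this 5′ to 3′ ratio and not to the amount of spike-in RNA. Signal of S100a8, a calcium-binding protein gene of neutrophils, exceeded 100 on 6 of 10 HF day 56, 4 of 10 LF day 56 and 7 of 10 LF day 0 arrays. The summed level of the 11 measured neutrophil genes ran from 52.2 to 13545.3 in HF day 56 muscle (median 1290.95), from 52.9 to 2629.7 in LF day 56 muscle (median 59.8) and from 55.7 to 10387.5 in LF day 0 muscle (median 2023.6).

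ETS factors are transcription factors known for activating endothelial genes through a GGAA core. RefSeq promoter windows on mouse build GRCm38.p6 were given for 6 of the 10 genes (Cldn5, Egfl7, Emcn, Eng, Kdr and Tie1), with 3 start sites for Egfl7 and thus 8 windows. The 250 bases before each start were searched on both strands for AGGAAG and CGGAAG, which do not overlap each other, and the matches are in capitals. AGGAAG occurred in 5 of the 8 windows, those of Emcn, Eng, Tie1 and 2 of Egfl7, against 29.5% of 32851 mouse promoter windows of the same length. Counted by gene it occurred in 4 of the 6. The 3 windows of Egfl7 are not independent, and enrichment was not tested. CGGAAG occurred in 1 window, that of Tie1, against 13.6% of all windows. A match describes these letters and is no evidence of binding. Shown are the windows of Cldn5, Egfl7 and Kdr, which belong to pairs that passed by Pearson r with the spike-in sets centred, described further on. The window of Tie1 is shown because it held both forms. Eng, which was in such a pair only with group centring, is not shown. Cldn5 lies on the plus strand (chr16:18776597-18776846), as does the first start of Egfl7 (chr2:26580833-26581082), while Tie1 (chr4:118489850-118490099) and Kdr (chr5:75978456-75978705) lie on the minus strand. The Kdr window lies inside the RefSeq gene, which reaches to 75979072 on that strand. The bases before the outermost start of Kdr were thus not searched.
Cldn5: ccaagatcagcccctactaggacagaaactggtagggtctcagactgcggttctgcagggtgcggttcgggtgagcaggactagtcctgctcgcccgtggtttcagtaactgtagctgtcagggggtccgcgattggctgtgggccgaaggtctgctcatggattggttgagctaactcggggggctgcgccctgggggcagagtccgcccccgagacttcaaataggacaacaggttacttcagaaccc
Egfl7: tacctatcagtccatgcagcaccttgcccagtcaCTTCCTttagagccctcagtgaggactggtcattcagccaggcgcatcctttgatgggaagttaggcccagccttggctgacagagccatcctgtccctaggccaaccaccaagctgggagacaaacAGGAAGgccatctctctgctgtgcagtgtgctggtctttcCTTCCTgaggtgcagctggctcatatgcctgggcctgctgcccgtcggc
Tie1: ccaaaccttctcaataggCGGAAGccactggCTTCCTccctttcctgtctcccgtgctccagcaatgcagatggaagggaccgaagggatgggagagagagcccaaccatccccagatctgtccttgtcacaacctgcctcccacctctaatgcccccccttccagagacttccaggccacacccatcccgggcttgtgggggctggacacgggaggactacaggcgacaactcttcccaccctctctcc
Kdr: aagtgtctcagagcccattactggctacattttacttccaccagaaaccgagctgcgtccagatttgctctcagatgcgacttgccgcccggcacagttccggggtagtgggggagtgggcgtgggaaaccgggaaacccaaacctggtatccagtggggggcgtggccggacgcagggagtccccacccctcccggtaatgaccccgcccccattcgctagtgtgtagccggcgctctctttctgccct
The Cldn5 and Kdr windows held neither form, the Egfl7 window held AGGAAG at 3 places and the Tie1 window held 1 match to each form. The letters of other factors were searched too, AGATAA or TGATAA for GATA factors, ACAATG for SOX factors, TGTTTAC for FOX factors and ACGTG for hypoxia-inducible factors. The 8 windows held 1 match, a TGATAA in the second Egfl7 window, against 7.94% of all windows. The letters without a match occurred in 9.99% (AGATAA), 10.7% (ACAATG), 3.17% (TGTTTAC) and 16.6% (ACGTG) of all windows.

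Aplnr and Cldn5 were lower at day 56 than at day 0 on both diets, and no endothelial marker passed the test between the diets. In LF day 56 against LF day 0, 2 of the 10 markers fell and 0 rose (limma, adjusted p below 0.05), where 0.85% of all entries passed in either direction and 0.625% fell. The mean of all 10 was lower in LF day 56 muscle, with a median difference of -0.24 on the log2 scale, against 0.00089 over all entries. Of the 6844 entries that reached the same level as the markers, 47.9% had a lower mean. The shared direction did not hold without the arrays high in S100a8, which left 3 LF day 0 arrays. Eng then differed by 0.23 and Pecam1 by 0.14, while the other markers stayed lower. An unadjusted p below 0.05 was reached by 7 of the 10, compared with 10.1% of all entries. Because the markers were chosen with earlier results of these data known, the shares here and below describe them and do not test the set.

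The same 2 genes fell in HF day 56 against LF day 0, where 1.59% of all entries passed and 0.807% fell. The median over the 10 markers was -0.17, and 8 of the 10 means were lower in HF day 56 muscle, Emcn and Eng being the exceptions; the share was 52.6% among entries of that level. Between the diets, HF day 56 against LF day 56, 0 of the 10 passed, where 0.0243% of all entries, 4 in number, did. In that comparison 1 marker, Cdh5, had an unadjusted p below 0.05, a level that 5.1% of all entries reached. The mean was higher in HF day 56 muscle for 8 of the 10, with a median of 0.15, against 0.0029 over all entries; 45.0% of entries of that level had a higher mean.

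**Figure D1:**
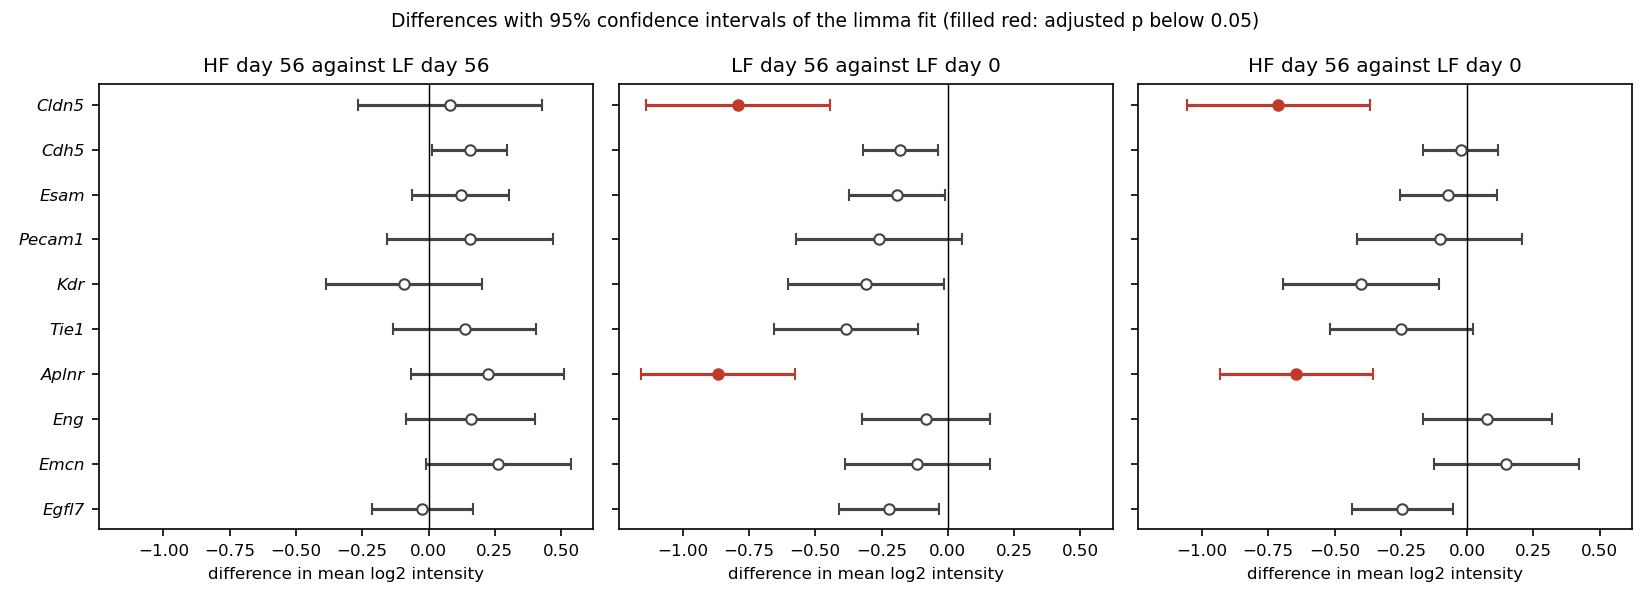
Differences in mean log2 intensity (horizontal axis) of the 10 endothelial markers, 1 panel per comparison, with 95% confidence intervals of the limma fit over 10 arrays per group. Filled red points mark an adjusted p below 0.05: Cldn5 and Aplnr in both comparisons with LF day 0, and no gene in the diet comparison.

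Cldn5 (Entrez gene 12741) encodes claudin-5, the tight junction protein that seals endothelial contacts. Its intensity ran from 65.1 to 144.2 in HF day 56 muscle (median 91.35), from 62.4 to 125.1 in LF day 56 muscle (median 96.5) and from 110.6 to 292.4 in LF day 0 muscle (median 143.25). All 10 LF day 56 arrays lay below the LF day 0 mean and 8 below its lowest array, and 7 of 10 HF day 56 arrays lay below that lowest array too. On the log2 scale Cldn5 averaged 6.49 ± 0.36 in LF day 56 muscle and 7.28 ± 0.46 in LF day 0 muscle (SD, n = 10 each). This was a difference of -0.79 ± 0.17 (SE), or 1.73-fold lower (limma adjusted p = 0.0130). HF day 56 muscle averaged 6.57 ± 0.38 (SD, n = 10), a difference of -0.71 ± 0.17 (SE) from LF day 0 (limma adjusted p = 0.0207). Between the diets the difference was 0.08, with a 95% interval of -0.27 to 0.43 (limma adjusted p = 0.998).

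The other junction genes did not pass in any of the 3 comparisons. Cdh5 (Entrez gene 12562) encodes VE-cadherin, the adhesive core of the endothelial adherens junction. It was dim, with 15.8 to 22.2 in HF day 56 muscle, 14.6 to 20.4 in LF day 56 muscle and 16.7 to 23.5 in LF day 0 muscle, and the 3 groups overlapped. Its differences were 0.16 for HF day 56 against LF day 56 (95% interval 0.01 to 0.30, unadjusted p = 0.0323, limma adjusted p = 0.941), -0.18 for LF day 56 against LF day 0 (adjusted p = 0.317) and -0.02 for HF day 56 against LF day 0 (adjusted p = 0.963). The HF day 56 values of Cdh5 thus stood nearer to LF day 0 than to LF day 56, within the spread of the groups.

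Esam (Entrez gene 69524), an immunoglobulin-family adhesion molecule of endothelial tight junctions, ran from 205.8 to 348.7 in HF day 56 muscle, from 188.5 to 307.1 in LF day 56 muscle and from 240.0 to 355.0 in LF day 0 muscle. Pecam1 (Entrez gene 18613), which encodes the contact adhesion molecule CD31, ran from 148.3 to 289.5 in HF day 56 muscle, from 131.6 to 288.6 in LF day 56 muscle and from 152.9 to 323.7 in LF day 0 muscle. For both genes all 3 groups overlapped over most of their range. In LF day 56 against LF day 0 the differences were -0.19 for Esam (95% interval -0.37 to -0.01, limma adjusted p = 0.462) and -0.26 for Pecam1 (-0.57 to 0.05, adjusted p = 0.596). Between the diets they were 0.12 for Esam (-0.06 to 0.30) and 0.16 for Pecam1 (-0.16 to 0.47), both with adjusted p = 0.998.

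Of 15 measured junction partners, 1 passed in LF day 56 against LF day 0 and 0 in the other 2 comparisons. That gene was Vezf1, a zinc finger transcription factor of vascular endothelium and not itself a junction protein, which rose by 0.21 ± 0.05 (SE, limma adjusted p = 0.0405). It read 711.2 to 935.5 in LF day 56 muscle (median 831.2), against 659.2 to 769.8 in LF day 0 muscle (median 724.45), and 9 of 10 LF day 56 arrays lay above the LF day 0 mean. Afdn, which encodes the scaffold protein afadin, differed by -0.23 (adjusted p = 0.193), and the median of the list was -0.03.

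Aplnr (Entrez gene 23796), the receptor for apelin on endothelial cells, ran from 45.8 to 82.4 in HF day 56 muscle (median 62.05), from 37.1 to 65.0 in LF day 56 muscle (median 50.7) and from 69.9 to 155.3 in LF day 0 muscle (median 92.45). Every LF day 56 array lay below every LF day 0 array, a separation in one or the other direction that 0.121% of all entries showed. Of the HF day 56 arrays, 7 of 10 lay below the lowest LF day 0 array. On the log2 scale Aplnr averaged 5.69 ± 0.28 in LF day 56 muscle and 6.56 ± 0.41 in LF day 0 muscle (SD, n = 10 each). The difference was -0.87 ± 0.14 (SE; 95% interval -1.16 to -0.58), or 1.82-fold lower (limma adjusted p = 0.000700). HF day 56 muscle averaged 5.91 ± 0.29 (SD, n = 10), 1.56-fold below LF day 0, with a difference of -0.64 ± 0.14 (SE, adjusted p = 0.0104). LF day 0 was thus highest and LF day 56 lowest. The 2 day 56 groups, neighbours in that order, did not differ beyond their spread (0.22, 95% interval -0.07 to 0.51, adjusted p = 0.998).

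Apln, the gene of the ligand apelin, fell in the same 2 comparisons. Its signal was 8.6 to 14.1 in HF day 56 muscle (median 10.7), 7.4 to 12.9 in LF day 56 muscle (median 9.8) and 10.5 to 19.9 in LF day 0 muscle (median 14.65). These values are close to the array medians and stayed below 20 on all 30 arrays, so the size of the change is uncertain. The difference was -0.59 ± 0.11 (SE) in LF day 56 against LF day 0 (limma adjusted p = 0.00402, 10 of 10 arrays below the LF day 0 mean). On the high fat diet, HF day 56 against LF day 0, it was -0.48 ± 0.11 (SE, adjusted p = 0.0185), and between the diets 0.11 ± 0.11 (SE, adjusted p = 0.998). Without the 17 arrays high in S100a8, Apln differed by -0.33 in LF day 56 against LF day 0 (adjusted p = 0.484) and by -0.30 in HF day 56 against LF day 0 (adjusted p = 0.772). Within the 21 arrays of low spike-in signal these differences were -0.74 (adjusted p = 0.0106) and -0.47 (adjusted p = 0.102), and within the other 9 they were -0.23 (adjusted p = 0.721) and -0.51 (adjusted p = 0.453). Of the 5 measured genes of the apelin pathway, Apln alone passed. Klf2, a flow-responsive transcription factor gene of endothelium, differed by 0.56 in LF day 56 against LF day 0 (adjusted p = 0.649), with 54.0 to 262.2 in LF day 56 muscle and 44.6 to 414.1 in LF day 0 muscle.

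Kdr (Entrez gene 16542), the main signalling receptor for VEGF, ran from 35.3 to 93.5 in HF day 56 muscle (median 53.95), from 30.5 to 81.7 in LF day 56 muscle (median 62.25) and from 62.5 to 93.4 in LF day 0 muscle (median 72.5). The lowest LF day 0 array lay above 8 of 10 HF day 56 arrays and above 5 of 10 LF day 56 arrays, while the highest HF day 56 array exceeded every LF day 0 array. The differences did not pass the test. They were -0.40 ± 0.14 (SE) in HF day 56 against LF day 0 (limma adjusted p = 0.210), -0.31 ± 0.14 (SE) in LF day 56 against LF day 0 (adjusted p = 0.465) and -0.09 ± 0.14 (SE) between the diets (adjusted p = 0.998). Spread between mice was larger at day 56, with an SD of 0.39 in HF day 56 and 0.41 in LF day 56 muscle, against 0.17 in LF day 0 muscle, and this was not tested. Of 12 measured genes of the VEGF pathway, 0 passed in any comparison. Nearest to passing was the ligand gene Vegfc, with -0.41 in HF day 56 against LF day 0 (adjusted p = 0.0630). In LF day 56 against LF day 0 it differed by -0.36 (adjusted p = 0.176), and 10 of 10 arrays of each day 56 group lay below the LF day 0 mean. Vegfc was dim, with 8.8 to 16.9 in HF day 56 and 12.7 to 27.6 in LF day 0 muscle. Vegfd, another ligand gene, differed by 0.30 in both comparisons (adjusted p = 0.182 in HF day 56 and 0.244 in LF day 56 muscle).

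Tie1 (Entrez gene 21846), an orphan tyrosine kinase that pairs with the angiopoietin receptor, ran from 16.7 to 29.3 in HF day 56 muscle, from 17.1 to 34.9 in LF day 56 muscle and from 19.8 to 40.6 in LF day 0 muscle. In LF day 56 muscle 9 of 10 arrays lay below the LF day 0 mean, and the difference of -0.38 ± 0.13 (SE; 95% interval -0.65 to -0.11) did not pass (limma adjusted p = 0.228). The HF day 56 difference from LF day 0 was -0.25 ± 0.13 (SE, adjusted p = 0.516), and between the diets 0.14 ± 0.13 (SE, adjusted p = 0.998). Tek, the angiopoietin receptor itself, differed by -0.22 in LF day 56 against LF day 0 (adjusted p = 0.404), and 0 of the 7 measured angiopoietin and TIE genes passed in any comparison. Angpt1, a ligand gene of Tek, came nearest, with 0.39 in HF day 56 against LF day 0 (adjusted p = 0.0940). Its signal was dim, with 11.3 to 20.6 in HF day 56 and 9 to 14.6 in LF day 0 muscle. Of the HF day 56 arrays, 9 of 10 lay above the LF day 0 mean.

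Eng (Entrez gene 13805), the co-receptor endoglin for BMP and TGF-beta ligands, ran from 143.8 to 262.7 in HF day 56 muscle, from 118.0 to 213.3 in LF day 56 muscle and from 131.3 to 241.1 in LF day 0 muscle, so that all 3 groups overlapped. Its differences were 0.16 between the diets (95% interval -0.08 to 0.40), -0.08 in LF day 56 against LF day 0 (-0.32 to 0.16) and 0.08 in HF day 56 against LF day 0 (-0.17 to 0.32), with limma adjusted p from 0.890 to 0.998. Of 18 measured endoglin and BMP pathway genes, 0 passed. Tgfb1, a ligand gene of this family, had the smallest p of the list, with -0.40 in LF day 56 against LF day 0 (adjusted p = 0.264) and 0.41 in HF day 56 against LF day 56 (adjusted p = 0.733).

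Emcn (Entrez gene 59308), a mucin-like surface glycoprotein of capillaries and veins, had the largest difference between the diets among the 10 markers, 0.26 ± 0.13 (SE; 95% interval -0.01 to 0.54, limma adjusted p = 0.988). It ran from 75.7 to 171.1 in HF day 56 muscle (median 136.05), from 73.1 to 140.4 in LF day 56 muscle (median 105.95) and from 69.8 to 153.0 in LF day 0 muscle (median 118.9). Of the HF day 56 arrays, 4 of 10 exceeded the highest LF day 56 array, while the lowest stood close to the lowest LF day 56 array. Against LF day 0 the difference was 0.15 in HF day 56 muscle (adjusted p = 0.782) and -0.12 in LF day 56 muscle (adjusted p = 0.851).

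Egfl7 (Entrez gene 353156), which encodes a secreted protein deposited in the vessel matrix, ran from 125.9 to 190.0 in HF day 56 muscle, from 112.6 to 207.0 in LF day 56 muscle and from 150.7 to 223.4 in LF day 0 muscle. In each day 56 group 9 of 10 arrays lay below the LF day 0 mean. The differences were -0.24 ± 0.09 (SE) in HF day 56 against LF day 0 (limma adjusted p = 0.253) and -0.22 ± 0.09 (SE) in LF day 56 against LF day 0 (adjusted p = 0.385). Between the diets it was -0.02 ± 0.09 (SE; 95% interval -0.21 to 0.17).

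**Figure D2:**
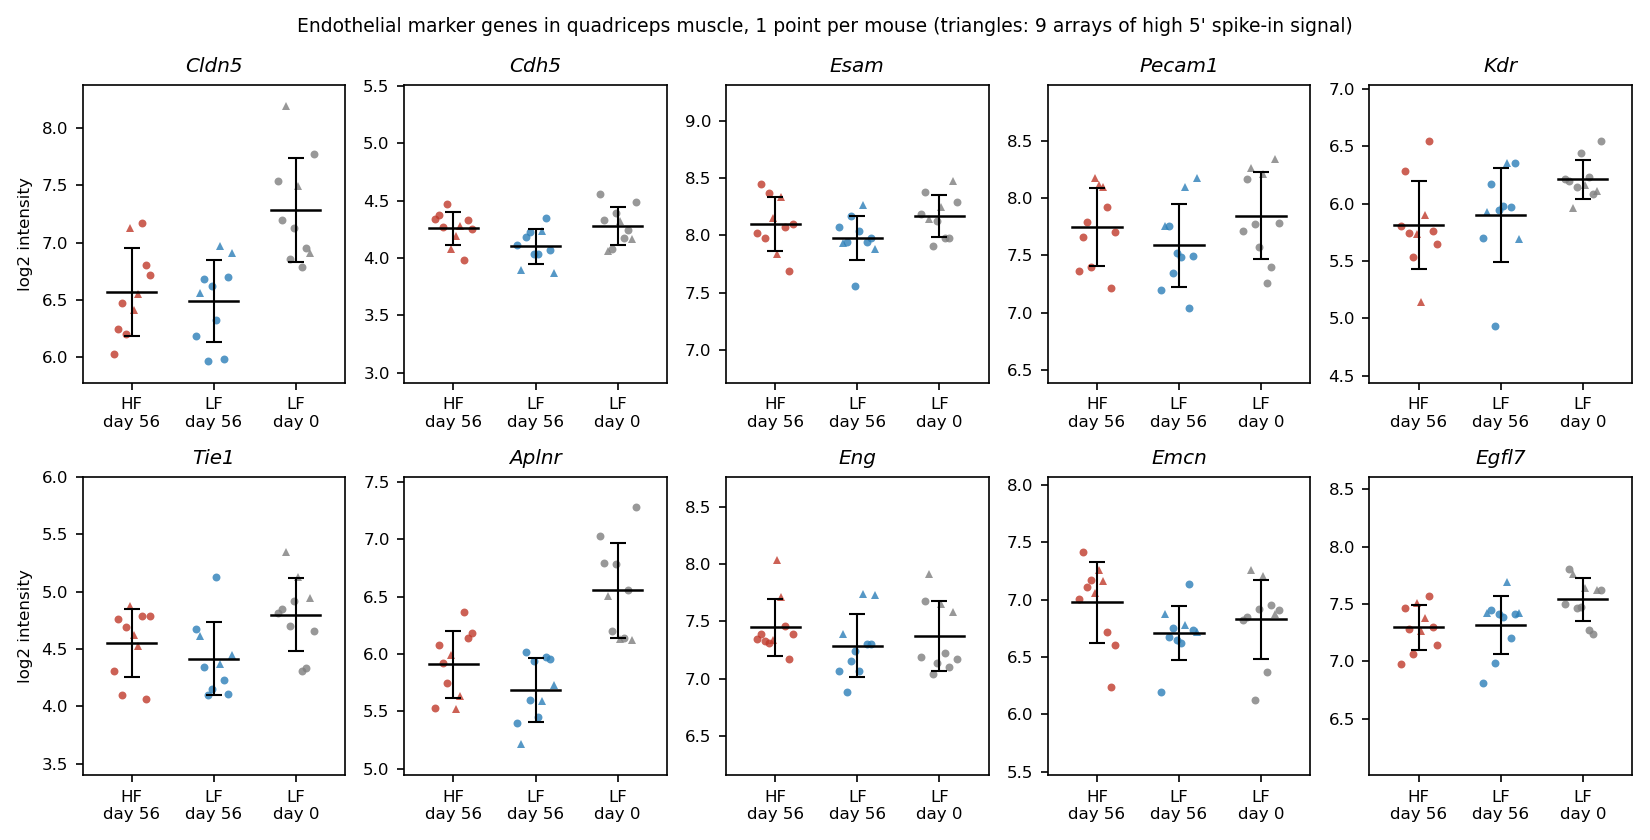
Log2 intensity (vertical axes, same span in each panel) of the 10 endothelial markers in HF day 56, LF day 56 and LF day 0 muscle, 1 point per mouse, with the group mean and SD in black (n = 10 each). Triangles are the 9 arrays of high 5′ spike-in signal. For Aplnr every LF day 56 array lies below every LF day 0 array, and for Cldn5 8 of 10 do.

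The 2 falls were also set against the array properties. With the spike-in set as a block, adjusted p was 0.000180 for Aplnr and 0.00605 for Cldn5 in LF day 56 against LF day 0, and with a neutrophil score as a covariate it was 0.00202 and 0.0114 (limma). In the 9 arrays of high spike-in signal, with 3 mice per group, the differences of Aplnr and Cldn5 were -0.74 and -0.72 and passed for neither gene (adjusted p = 0.196 and 0.518). In the 21 others they were -0.92 and -0.82 (adjusted p = 0.0118 and 0.0488). For HF day 56 against LF day 0 the 21 arrays gave -0.69 for Aplnr (adjusted p = 0.0458) and -0.66 for Cldn5, which did not pass there (adjusted p = 0.0944), while the 9 arrays gave -0.54 and -0.84 (adjusted p = 0.463 and 0.488). Without the 17 arrays high in S100a8, which left 3 LF day 0 arrays, LF day 56 against LF day 0 gave -1.24 for Aplnr (adjusted p = 0.00329) and -0.61 for Cldn5 (adjusted p = 0.248). HF day 56 against LF day 0 then gave -0.73 for Aplnr (adjusted p = 0.192) and -0.43 for Cldn5 (adjusted p = 0.669).

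Of 40 further endothelial genes 38 were measured, and 0 passed in any comparison. In LF day 56 against LF day 0 the mean was lower for 28 of the 38, with a median of -0.11, and in HF day 56 against LF day 56 it was higher for 28 of 38, with a median of 0.09. The summed level of the list was 4782.8 to 6149.6 in LF day 56 muscle and 5067.8 to 7248.3 in LF day 0 muscle. Cd93, a surface glycoprotein of endothelial cells, came nearest in LF day 56 against LF day 0. Its difference was -0.21 ± 0.07 (SE, limma adjusted p = 0.182), with 39.7 to 55.3 in LF day 56 muscle and 45.8 to 63.6 in LF day 0 muscle. Between the diets Car4, a carbonic anhydrase of muscle capillaries, came nearest, with 0.28 ± 0.09 (SE, adjusted p = 0.617). Of 14 measured arterial and venous genes and 6 lymphatic genes, 0 passed. In the first of these lists Ephb4, the receptor tyrosine kinase of venous endothelium, differed by 0.38 ± 0.11 between the diets (SE, adjusted p = 0.391), with 10.8 to 15.0 in HF day 56 muscle and 6.9 to 13.4 in LF day 56 muscle.

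Lists for neighbouring cell types showed which other RNAs moved in the same comparison. Of 9 measured fibroblast and matrix genes 5 fell in LF day 56 against LF day 0 (Col1a1, Col1a2, Col3a1, Postn and Sparc; median of the list -0.56), with summed levels of 12104 to 15277 in LF day 56 muscle and 13549 to 22165 in LF day 0 muscle. Of 12 basement membrane genes 3 fell (Col4a1, Col4a2 and Lama2; median -0.23). Col4a1, a collagen chain of the vessel and fibre basement membranes, read 769.6 to 1155.5 in LF day 56 muscle and 1091.6 to 1611.2 in LF day 0 muscle (-0.54 ± 0.09, SE, limma adjusted p = 0.00112). The median of 12 pericyte and smooth muscle genes was -0.18 with 0 calls. The neutrophil list, with sums given above, had a median of -1.84 with 0 of 11 called, and 0 of 11 leukocyte, 0 of 9 platelet, 0 of 6 red cell precursor, 0 of 11 cell cycle and 0 of 12 fibre genes passed. The part of these other cell types in the falls of Aplnr and Cldn5 was not tested beyond the neutrophil values above.

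In HF day 56 against LF day 0, 3 fibroblast and matrix genes fell (Col1a1, Col1a2 and Col3a1), 3 basement membrane genes fell (Col4a1, Lama2 and Lamb1) and 4 of 6 adipocyte genes rose (Adipoq, Lep, Cidec and Retn). In that comparison the median of the 38 further endothelial genes was -0.02, and in the diet comparison 0 genes of any of these lists passed.

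**Figure D3:**
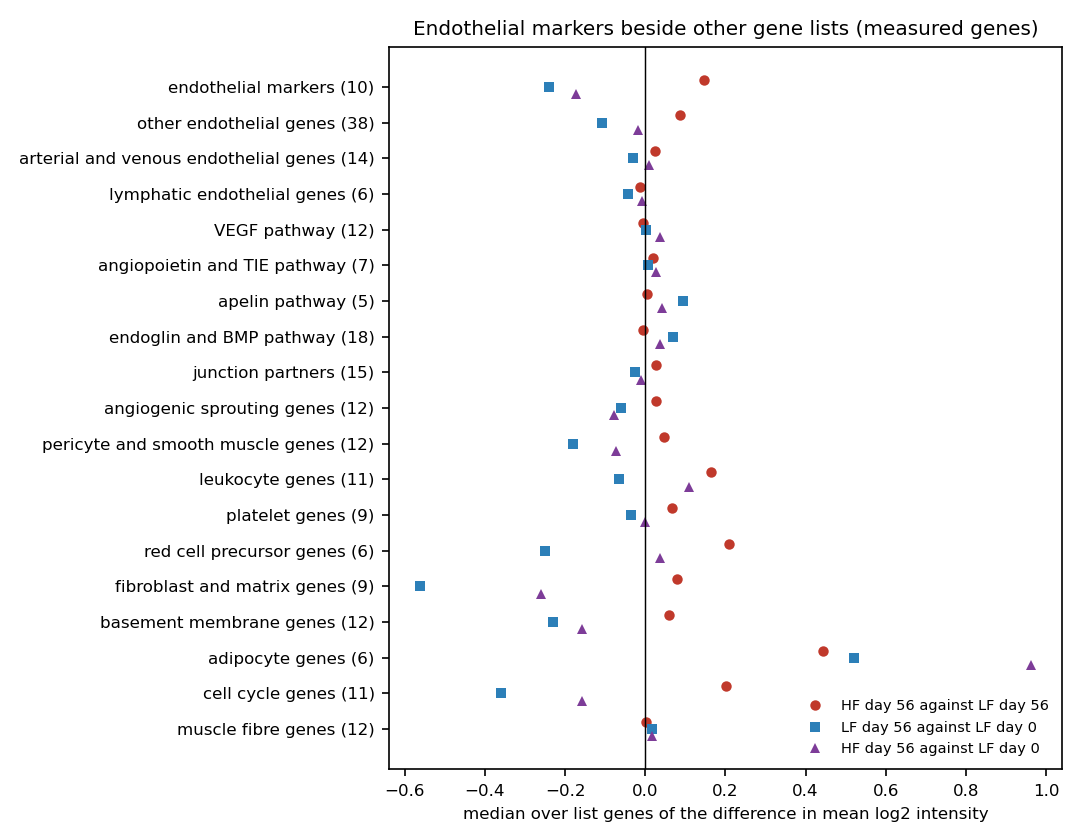
Median difference in mean log2 intensity over the measured genes of each list (number in brackets) in the 3 comparisons. The 10 endothelial markers had medians of 0.15, -0.24 and -0.17, and the neutrophil list, with medians of 1.03, -1.84 and -0.68, is left off the axis.

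From mouse to mouse the markers did not vary as a single block. With values centred within each group, the 45 pairs among the 10 genes had a median Pearson r of 0.29 over 30 arrays, and 32 of the 45 were positive. After adjustment over the 45 pairs 4 passed a two-sided permutation test of 100000 resamples within groups, all positive. Pairs of other entries were not counted in this way. Here and below these numbers thus describe the markers and do not set them apart from other genes. Egfl7 and Pecam1 had r = 0.73 and rho = 0.74 (adjusted p = 0.000450 and 0.000900). Eng and Pecam1 had r = 0.71 and rho = 0.66 (permutation adjusted p = 0.000450 and 0.00345), and Cldn5 and Egfl7 had r = 0.69 and rho = 0.71 (permutation adjusted p = 0.000600 and 0.000900). Cldn5 and Pecam1 had r = 0.57 and rho = 0.56 (adjusted p = 0.0186 and 0.0281). Without the 2 arrays farthest from the median of the first gene, r of these 4 pairs was 0.74, 0.69, 0.66 and 0.54. Cdh5 and Pecam1, both adhesion genes, had r = -0.43 and rho = -0.41, which did not pass (permutation adjusted p = 0.0947 and 0.129).

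Some of these relations differed once the spike-in sets were centred. At equal group, 3 of the 10 markers differed between the 9 arrays of high and the 21 of low signal (limma, adjusted p below 0.05), where 23.1% of all entries did. Pecam1 was higher on the 9 arrays by 0.58 ± 0.09 (SE, adjusted p = 7.68e-06), Eng was higher by 0.44 ± 0.07 (SE, adjusted p = 2.21e-05), and Aplnr differed by -0.32 ± 0.11 (SE, adjusted p = 0.0389). With values centred within group and set, Eng and Pecam1 had r = 0.28 (permutation adjusted p = 0.405) and no longer passed. Cldn5 and Pecam1 then had r = 0.46 (permutation adjusted p = 0.0919) and rho = 0.52, which passed (permutation adjusted p = 0.0302). Cdh5 and Emcn likewise passed by rho alone, with r = 0.48 and rho = 0.52 (permutation adjusted p = 0.0919 and 0.0302). Cdh5 and Pecam1 had r = -0.19 (permutation adjusted p = 0.728).

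Cldn5 and Aplnr, the 2 genes that fell, had r = 0.45 and rho = 0.46 with group centring (permutation adjusted p = 0.0947 and 0.0827). Centred within group and set they had the highest of all 45 values, r = 0.79 and rho = 0.80 (permutation adjusted p = 0.000450 and 0.000900). Their unadjusted p for r, 1e-05, is the smallest that 100000 resamples can give. Within the 21 arrays r was 0.80, within the 9 it was 0.83, and without the 2 arrays farthest from the median of Cldn5 it was 0.78. Egfl7 passed in the same setting with 4 partners, Pecam1 (r = 0.69), Kdr (0.67), Aplnr (0.63) and Cldn5 (0.62), with permutation adjusted p from 0.00660 to 0.00684. Cldn5 and Kdr, both printed above, did not pass with each other (r = 0.43, permutation adjusted p = 0.0919).

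**Figure D4:**
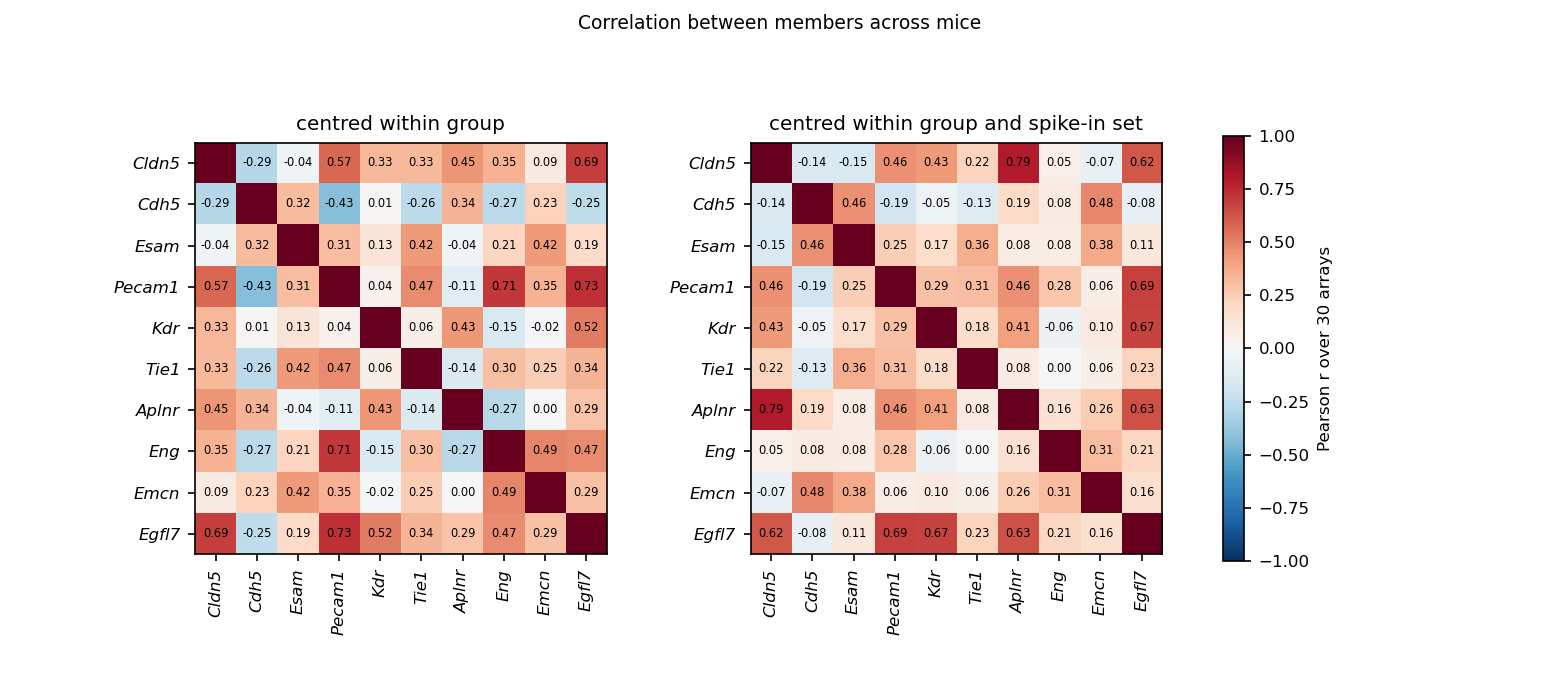
Pearson r between the 10 endothelial markers over 30 arrays, with log2 values centred within group (left) and within group and spike-in set (right). Eng and Pecam1 have 0.71 on the left and 0.28 on the right, while Cldn5 and Aplnr have 0.45 on the left and 0.79 on the right.

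**Figure D5:**
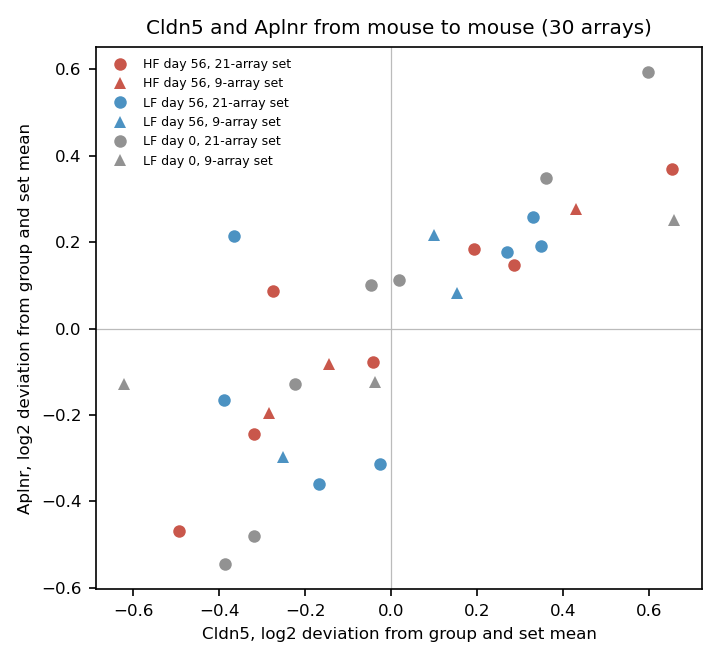
Log2 deviation of Cldn5 (horizontal) and Aplnr (vertical) from the mean of the array's group and spike-in set, 1 point per mouse, with colours for the groups and triangles for the 9 arrays of high spike-in signal. The points follow a rising line, with r = 0.79 over 30 arrays.

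Outside the set, the named genes whose group-centred values were most like the mean of the 10 markers, out of 6586 entries above the intensity limit, were Acp2 (r = 0.74), Cbx6 (0.74), Wdr1 (0.73), Sdha (0.72) and Reep5 (0.71). Centred within group and set they were S1pr3 (0.72), a sphingosine 1-phosphate receptor gene of vessels, Cbx6 (0.72), Acp2 (0.68), Agtr1a (0.68), an angiotensin II receptor gene of vessels, and Xpo6 (0.68). All rest on the same 30 arrays, and none of these 8 genes passed in any of the 3 comparisons. With group centring alone, the 29 further endothelial genes above the intensity limit had a median r of 0.07 with the mean of the 10 markers. Their r ranged from -0.65 to 0.60, against a median of 0.03 over all 6586 entries.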

How the data were processed

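Groups came from the labels. The deposited values are linear GCRMA intensities, 1 per gene and array, per the submitters' processing notes; the authors' software version and genome build are not given in the sources used here. The members and gene lists were chosen with earlier results of these data known. Values were moved to the log2 scale (pseudocount 0). Control probe sets, 64 of the 16539 rows, were dropped, and 15780 of the other 16475 had a single gene symbol. The linear model was that of limma 3.58.1 (R 4.3.3; lmFit, then eBayes) with group as its factor, all 30 arrays and 27 residual degrees of freedom. Tests were two-sided, Benjamini-Hochberg adjusted across the 16475 rows, at a threshold of 0.05. The fit was tested on simulated data. Permutations were drawn with numpy 2.4.6 in Python 3.11.15. Named were all members, plus from each other list the genes that passed or else up to 3 of smallest p. The files gave no detection calls, and the number of mice limits the precision. Alternatives covered the prior, normalization, pseudocount, a level filter, array weights, blocks, covariates and arrays left out.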

Additional observations from a re-analysis of the deposited data

Results flagged for a closer look

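Of 30 tests for a stray array (10 markers in 3 groups of 10), 1 found an array whose gap to its nearest neighbour was large for the group's range, where chance gives about 1.5. This was Kdr in replicate 4 of LF day 56, with an intensity of 30.5 against 51.8 in the next lowest LF day 56 array.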

How the results depend on the processing

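The Myh7 covariate was added after the data had been seen. Of 990 values of single markers under other settings, 966 kept direction and side of the threshold, 8 no longer passed, 0 newly passed and 16 changed sign. Most of these values belong to results that had not passed in the main fit, so keeping their side says little. All 8 losses were of Aplnr or Cldn5. Over the 13 settings other than single arrays left out, Aplnr kept its call in 12 (LF day 56 against LF day 0) and 11 (HF day 56 against LF day 0). Cldn5 kept its call in 11 and 10. Aplnr and Cldn5 passed in 20 of 20 fits that each left out 1 array, in both comparisons with LF day 0. Over those fits the members called were 0 to 0 between the diets and 2 to 2 in each other comparison, and the entries called were 2 to 15 (HF day 56 against LF day 56), 102 to 155 (LF day 56 against LF day 0) and 214 to 271 (HF day 56 against LF day 0). Between the diets the entries were 15, 10, 8 and 11 without HF day 56 replicates 3, 5, 7 and 9, and 2 without any single one of HF day 56 replicates 2, 4, 6 and 8 or LF day 56 replicates 1, 2, 3, 5, 6, 7, 9 and 10. Egfl7 changed sign between the diets in 3 of them (-0.079 to 0.018), and Cdh5 in HF day 56 against LF day 0 in 2 (-0.048 to 0.0070).

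Markers called in LF day 56 against LF day 0 were 0 within the 9 arrays of high spike-in signal and 1 without arrays high in S100a8. In HF day 56 against LF day 0 they were 1 (Aplnr) within the 21 arrays of low signal, 0 within the 9 and 0 without arrays high in S100a8. The 9-array and S100a8 settings leave 3 LF day 0 arrays.

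Entries called between the diets (4) became 0 with only those groups (799 at an unadjusted p below 0.05), 7 with a trended prior, 7 with a pseudocount of 16, 8 with the level filter, 12 with Myh7 as a covariate, 0 within the 21 (835 unadjusted), 0 within the 9 (782) and 0 without arrays high in S100a8 (728). In LF day 56 against LF day 0 (140) they became 214 with the spike-in block, 47 within the 21, 11 within the 9, 85 with the neutrophil score and 13 without arrays high in S100a8. In HF day 56 against LF day 0 (262) they became 134 within the 21, 0 within the 9 (1323 unadjusted) and 6 without arrays high in S100a8. The cause was not tested.

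With the replicate block the entries called were 1 between the diets, and the block changed no call of a marker. Each mouse has a number of its own in the labels, and same-numbered arrays did not deviate together: r exceeded 0.1 in 3, 2 and 4 of 10 pairs over the 3 comparisons.

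Signs turned for genes that had not passed. Within the 9 arrays Cldn5 gave -0.12 between the diets, and Cdh5 0.0017 and Eng -0.022 in HF day 56 against LF day 0. Within the 21 arrays Egfl7 gave 0.021 and Kdr 0.040 between the diets. Without arrays high in S100a8, Tie1 gave -0.11 and Eng -0.069 between the diets, Eng 0.23 and Pecam1 0.14 in LF day 56 against LF day 0, and Emcn -0.14 and Pecam1 0.16 in HF day 56 against LF day 0. Signal close to background limits what Cdh5, Tie1, Apln, Angpt1, Vegfc and Ephb4 can show.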
